A study of Mus musculus with 4 samples.

Results

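The 34 genes described here encode the steps of glycolysis, the transport of glucose and lactate, and products of the hypoxia response. They were taken by name, as the rows whose gene symbol equals 1 of the 34 names in each of the 4 count matrices. They fill 35 of 31253 rows, since Aldoa has 2. Of them 22 belong to glycolysis and its transporters and regulators, and 12 to the hypoxia response. All were read as unique molecular identifiers (UMIs), each standing for 1 captured RNA molecule, in single cells sorted for CD45 and CD8 from tumours of MB49, a mouse bladder carcinoma line. The WT library came from subcutaneous tumours in wild-type C57BL/6Slac mice aged 10 to 12 weeks, and the KO library from such tumours in BFAR-CD8-KO mice of the same strain and age. The KO cells are described as BFAR-deficient, and no source used here gives the Cre line or promoter behind the deletion. The Young and Aged libraries came from Rag1-/- hosts aged 8 to 10 weeks, which make no T or B cells but keep their other immune cells, and which bore MB49 tumours. On the day of tumour inoculation they were injected by vein with donor CD8+ T cells. The Young donors were 8 weeks old and the Aged donors 18 months old. The strain label of the Young hosts reads B6.129S7-Rag1tm0Mom/J and that of the Aged hosts B6.129S7-Rag1tm1Mom/J. Each library pooled 3 mice. A group thus consisted of 1 library, which leaves nothing to measure replicate error from, and no test was made between groups.

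Glycolysis splits glucose into pyruvate, and cells that reduce the pyruvate to lactate export it through monocarboxylate transporters. When oxygen is low, the prolyl hydroxylases encoded by the Egln genes stop marking HIF-1α, the product of Hif1a, for destruction, and the HIF dimer then induces most genes of glycolysis together with genes such as Bnip3, Vegfa and Egln3. Activated CD8+ T cells switch on the same enzymes through antigen receptor and cytokine signals, also where oxygen is plentiful.

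HIF binds a short core, ACGTG or GCGTG, which was searched on both strands of promoters that reach from 250 bases before to 50 after the RefSeq start site (build GRCm38.p6). The promoter table held 48 promoters of 31 of the 34 genes, and none for Slc2a3, Bnip3l or Ero1l. A core stood in 39 of the 48 (81.3%), against 14380 of all 32851 promoters of the table (43.8%). ACGTG alone stood in 28 of the 48 (58.3%), against 19.6% of all. Some promoters of the same gene overlap, as for Aldoa and Eno1, and then count the same core again. The promoters of the members were not matched to the others for GC content. A match is a description of letters and not of binding. The sequences printed here are those of Bnip3, Aldoc, Tpi1 and Slc16a3, the 4 genes whose smallest ratio over the libraries was highest when cells rich and poor in the other members were compared, on the strand of the gene, with each core on either strand in capitals.
Bnip3, chr7:138909457-138909756, strand -: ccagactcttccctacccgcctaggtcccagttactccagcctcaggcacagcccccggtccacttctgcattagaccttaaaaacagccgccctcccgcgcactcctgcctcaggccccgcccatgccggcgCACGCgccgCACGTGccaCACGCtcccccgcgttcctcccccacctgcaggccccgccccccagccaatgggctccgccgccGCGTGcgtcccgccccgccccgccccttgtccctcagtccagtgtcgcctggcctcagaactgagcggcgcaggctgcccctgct
Slc16a3, chr11:120948817-120949116, strand +: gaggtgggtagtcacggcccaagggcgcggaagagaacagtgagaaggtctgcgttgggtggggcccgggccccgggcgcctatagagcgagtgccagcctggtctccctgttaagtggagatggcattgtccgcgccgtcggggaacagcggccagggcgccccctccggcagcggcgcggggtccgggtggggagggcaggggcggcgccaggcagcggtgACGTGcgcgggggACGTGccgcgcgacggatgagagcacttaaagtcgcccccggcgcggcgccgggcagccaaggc
Aldoc, chr11:78322823-78323122, strand +: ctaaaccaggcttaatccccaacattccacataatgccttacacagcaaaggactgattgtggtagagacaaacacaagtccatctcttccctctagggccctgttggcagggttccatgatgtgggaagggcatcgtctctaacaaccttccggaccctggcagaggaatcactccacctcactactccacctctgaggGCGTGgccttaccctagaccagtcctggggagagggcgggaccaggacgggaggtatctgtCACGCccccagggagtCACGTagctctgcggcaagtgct
Tpi1, chr6:124814109-124814408, strand -: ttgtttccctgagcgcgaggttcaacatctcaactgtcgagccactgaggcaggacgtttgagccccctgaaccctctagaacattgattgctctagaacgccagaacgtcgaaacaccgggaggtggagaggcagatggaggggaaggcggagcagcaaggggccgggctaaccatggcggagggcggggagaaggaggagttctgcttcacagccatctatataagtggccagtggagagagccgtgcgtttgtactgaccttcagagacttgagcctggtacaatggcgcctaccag
The Bnip3 promoter held 5 matches, of which a pair are the same letters CACGTG read on both strands. The Slc16a3 promoter held ACGTG 27 and 14 bases before the start site, at positions -27 and -14. The first of the Aldoc promoters held 3 matches, at -50, 12 and 28, and the Tpi1 promoter held none in this window, so the 4 genes did not share a count of cores.

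CD8 T cells here are barcodes with at least 1000 UMIs, at least 500 genes, at most 10% mitochondrial UMIs and at least 1 UMI of a CD3 and of a CD8 gene. They numbered 8966 in WT, 8153 in KO, 9803 in Young and 8252 in Aged, or 93 to 96.9% of the kept barcodes, with median depths of 4510 to 6870 UMIs. Tumour cells, which the sort was meant to leave out, were barcodes with at least 5 UMIs of a tumour and epithelial marker list, more of these than of fibroblast markers, and at most 2 UMIs of CD3, CD8 and CD45 genes per 10000 UMIs. They numbered 153 in WT, 25 in KO, 130 in Young and 117 in Aged, and their median depth was 25780 to 43840 UMIs. Of them 16, 4, 4 and 0 also met the definition of CD8 T cells. Levels are given as counts per 1000000 UMIs of the population (CPM). Bfar itself was read at 32.1 CPM in WT CD8 T cells and 22.4 CPM in KO, and no source used here says whether the counted end of the transcript lies in the deleted stretch. The libraries of a pair shared few cell barcodes, 19 between WT and KO and 136 between Young and Aged. Transcripts of other cells were present in the CD8 T barcodes. The 16 tumour and epithelial markers summed to 444.5 CPM in WT, 231.3 in KO, 273.8 in Young and 135.0 in Aged, and the 5 fibroblast markers to 223.1, 33.9, 27.8 and 10.9. The 4 mast cell and basophil markers summed to 241.6, 82.5, 1.00 and 0.97, and the 13 myeloid markers to 50.8, 27.8, 141.0 and 79.3. All 16 tumour markers had a UMI in WT CD8 T barcodes, 15 in KO and Young and 13 in Aged. Within the pairs all 4 sums were higher in WT than in KO, and the tumour, fibroblast and myeloid sums were higher in Young than in Aged, where mast cell markers were near 0 in both. The comparisons within pairs, by gate and between cells rich and poor in the members were therefore repeated without the 14.8 to 21.2% of CD8 T cells that held any UMI of 32 marker genes of tumour, myeloid, B, mast, fibroblast and endothelial cells. The cells that were left are called marker-free cells. They were shallower, with median depths of 4302 to 6632 UMIs against 5864 to 8655 in the removed cells. The part of depth in the changes between all CD8 T cells and marker-free cells was not tested. Of the 16 tumour and epithelial markers only the keratins Krt7, Krt8, Krt18 and Krt19 were among the 32, and the 16 together still summed to 83.2 to 97.5 CPM in marker-free cells.

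Glucose uptake and lactate export were split between the T cells and the tumour cells by gene. Slc2a3, which encodes the high-affinity glucose transporter GLUT3, was read in CD8 T cells at 37.4 CPM in WT, 41.2 in KO, 18.7 in Young and 44.2 in Aged, and in tumour cells at 1.5, 2.38, 4.26 and 1.51. Slc16a3, the lactate exporter MCT4, stood at 26.4, 25, 19.1 and 39.6 in T cells. In tumour cells it had 8, 0, 0 and 1 UMIs. In each library both genes were higher in CD8 T cells than in tumour cells. Against the 3 UMIs that a count of 0 allows, Slc16a3 was at least 10.5-fold lower in KO tumour cells and at least 20.9-fold lower in Young tumour cells. The other members of the same transporter families ran the opposite way. Slc2a1 (GLUT1) stood at 38.8 to 53.2 CPM in T cells and 179.2 to 294.2 in tumour cells, 3.84 to 5.90 times higher, and Slc16a1 (MCT1) at 14.7 to 27.3 and 44.5 to 150.6. The 7 T cell markers, most of which the definition of tumour cells limits, summed to 6.65 to 41.2 CPM there and to 4883 to 6734 CPM in CD8 T cells.

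A gene was called between tumour and T cells if its level differed at least 2 times, each level raised by 1 CPM, in the same direction in all 4 libraries. It was measured if it reached 10 CPM in 1 of the populations in every library. Of 32 measured members 16 were called higher in tumour cells, against 17.7% of 8164 genes, and 2 were called lower (Slc2a3 and Slc16a3), against 12.9%. In the hypoxia response Vegfa, the growth factor of blood vessels, stood at 224.4, 236.2, 233.4 and 293.6 CPM in WT, KO, Young and Aged tumour cells and 26.0, 9.87, 10.3 and 6.26 in CD8 T cells. Egln3, a HIF hydroxylase that HIF induces, was 11.8 to 21.4 times higher in tumour cells, and Ero1l, an oxidase of protein folding, 6.06 to 13 times. Bnip3, a receptor for the removal of mitochondria, was 4.34 to 9.96 times higher and Ddit4, an inhibitor of mTOR signalling, 5.26 to 8.64 times. Hif1a itself went the other way, at 221.7 to 405.9 CPM in CD8 T cells and 130.0 to 204.5 in tumour cells. So did Mxi1, an antagonist of Myc, at 89.7 to 196.7 and 33.8 to 49.9. Neither gene passed the fold in every library. Egln1, the main HIF hydroxylase, was 1.25 to 1.51 times higher in tumour cells, P4ha1, a collagen hydroxylase, 1.77 to 2.47 times and Bnip3l 1.03 to 1.49 times. Hilpda, an inhibitor of fat breakdown, ranged from 0.794 to 2.09, while Ankrd37, a HIF target, was 2.25 to 6.94 times higher and among those called.

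Among the enzymes, Hk2, the inducible hexokinase, was 5.31 to 12.6 times higher in tumour cells, whereas Hk1, the constitutive one, was 1.33 to 1.76 times higher. Tpi1, triose phosphate isomerase, was 3.06 to 5.16 times higher, Gapdh 2.38 to 3.09, Pgk1, phosphoglycerate kinase, 2.26 to 2.97, and Pkm, pyruvate kinase, 2.58 to 3.00. Eno1 (enolase) and Gpi1 (glucose phosphate isomerase) were read at nearly the same level in both, with ratios of 0.810 to 1.12 and 0.904 to 1.13. Pfkp, the platelet isoform of phosphofructokinase, ranged from 0.545 to 1.08, and Pfkl, the liver isoform, from 2.31 to 3.40. The order of the steps in the pathway was thus no guide to the ratio. Pfkm and Pfkfb4 stayed under 4 CPM in all CD8 T populations. Gapdh alone made up 24.9 to 32.1% of the UMIs of the 34 genes in T cells, followed by Aldoa and Ldha, then by Eno1 and Pkm, whose order differed between libraries. Eno1 has a near-identical copy, Eno1b, counted at 5.27 to 29.4 CPM, and no source used here says how reads were split between such copies.

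**Figure D1:**
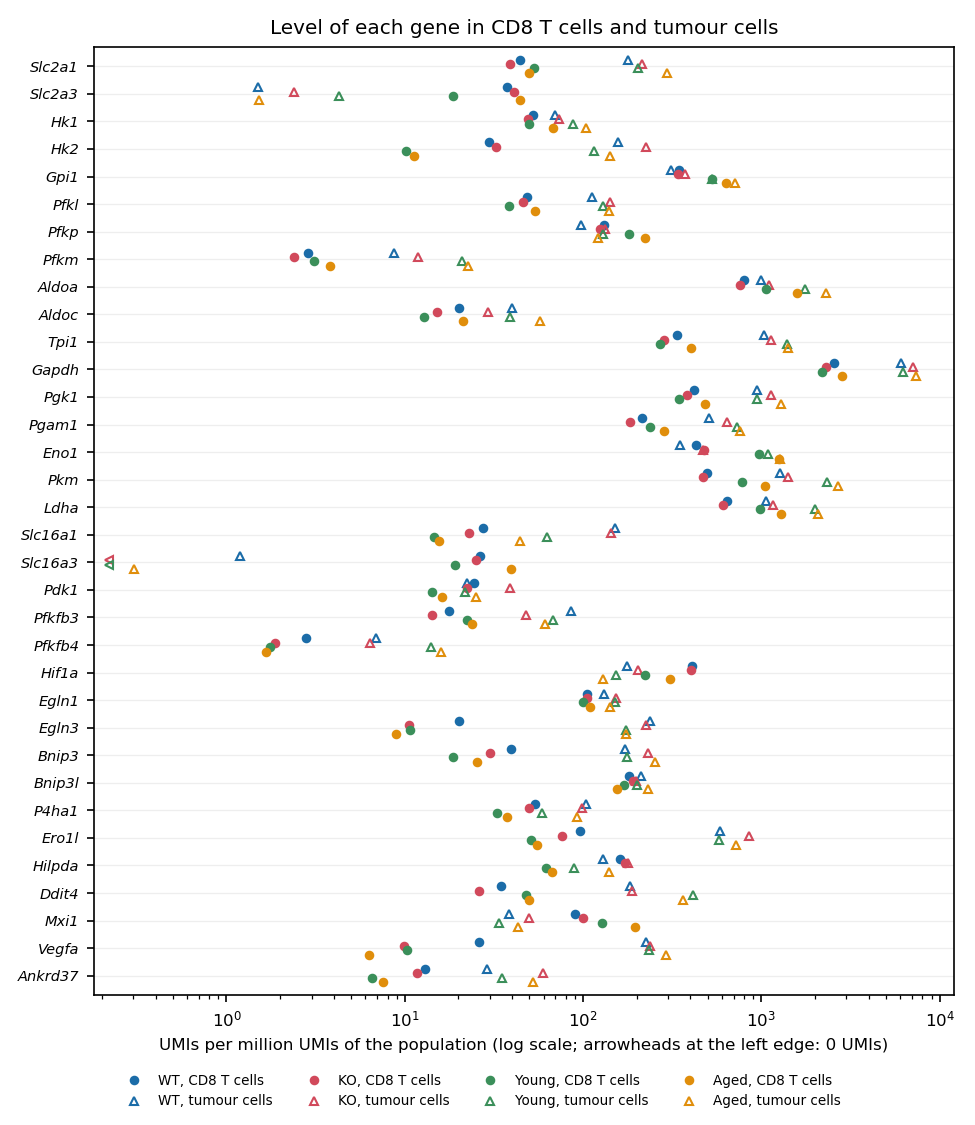
Level of each of the 34 genes in CPM (log scale), in CD8 T cells (filled circles) and tumour cells (open triangles) of the 4 libraries. Arrowheads at the left edge stand for 0 UMIs. Slc2a3 and Slc16a3 lie to the right in T cells, and Vegfa, Egln3 and Ero1l to the right in tumour cells.

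The Aged and Young libraries differed in the glucose transporter Slc2a3 and the lactate exporter Slc16a3. Slc2a3 was read at 44.2 CPM in Aged CD8 T cells and 18.7 in Young, a ratio of 2.37 (95% counting interval 2.21 to 2.54), and Slc16a3 at 39.6 and 19.1, a ratio of 2.08 (1.94 to 2.23). Both intervals cover counting error only, as do all intervals here, and say nothing of the spread between mice. Slc2a1 and Slc16a1, the family members that were higher in tumour cells, had ratios of 0.938 (0.893 to 0.985) and 1.06 (0.965 to 1.16). In marker-free cells Slc2a3 stood at 42.1 and 19.7, a ratio of 2.13, and Slc16a3 at 37.9 and 18.9, a ratio of 2.00.

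A gene was called within a pair if its levels differed at least 1.5 times, each raised by 1 CPM. It was measured with at least 20 UMIs in both libraries together and 10 CPM in 1 of them. Of 31 measured members 4 were called higher in Aged (Slc2a3, Slc16a3, Aldoc and Mxi1), against 2.29% of 7938 genes, and 1 was called lower (Vegfa), against 3.57%. The calls of Aldoc and Mxi1 ended with a pseudocount of 10 CPM and with equal weights of the gate combinations described further on. That of Aldoc also ended without barcodes with a Trbv12-1 UMI, and that of Mxi1 when libraries were scaled by the median of ratios. The ratio was above 1 for 27 of the 31, against 5345 of the 7938 genes. The median log2 ratio was 0.30, against 0.08 over all measured genes. It was 0.38 over 20 glycolysis members and 0.11 over 11 hypoxia members. Aldoc, an aldolase isoform, stood at 21.1 in Aged and 12.9 in Young (1.64, 1.5 to 1.79) and at 18.6 and 8.51 in marker-free cells (2.18, 1.93 to 2.48). Tpi1, at 403.8 and 269.5, fell just short of the call at 1.498, and was 1.70 times higher in marker-free cells (1.66 to 1.74).

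Along the pathway all 6 enzymes from Gapdh to Ldha had ratios of 1.20 to 1.41. Pgk1 was highest among them at 484.2 and 343.5, and Pgam1, phosphoglycerate mutase, lowest at 285.4 and 238.6. In the earlier steps Aldoa, the main aldolase, stood at 1581 and 1064 (1.49), Pfkl at 53.6 and 38.3 (1.40), Hk1 at 67.9 and 49.8 (1.36) and Gpi1 at 630.4 and 531.8 (1.19). Of the regulatory kinases Pdk1, which holds pyruvate back from the mitochondria, had a ratio of 1.13 and Pfkfb3, which makes the activator of phosphofructokinase, 1.08. Pfkp had 1.23 and Hk2 1.11. None of these passed 1.5. Pfkm and Pfkfb4 were too low to be measured, at 3.82 and 3.09 CPM and at 1.66 and 1.74 CPM.

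In the hypoxia group Hif1a was at 309.0 in Aged and 221.7 in Young (1.39, 1.36 to 1.43) and Mxi1 at 196.7 and 127.8 (1.54, 1.5 to 1.58). Bnip3 was at 25.5 and 18.6 (1.37, 1.27 to 1.48) and, in marker-free cells, at 20.5 and 11.3 (1.82, 1.63 to 2.04). Its relative Bnip3l was at 155.3 and 169.7 (0.915), on the other side of 1. Egln1 (1.09), P4ha1 (1.14), Ero1l (1.08), Hilpda (1.08) and Ddit4 (1.05) lay close to 1, and Ankrd37, at 7.54 and 6.53, was too low to be measured. Egln3 turned with the choice of cells, from 8.89 and 10.8 (0.826, 0.738 to 0.926) in all CD8 T cells to 4.67 and 2.49 (1.88, 1.48 to 2.39) in marker-free cells. Vegfa was at 6.26 and 10.3 (0.609, 0.537 to 0.691) and, in marker-free cells, at 1.58 and 2.03 (0.776, 0.560 to 1.07). Both Vegfa and Egln3 were under 10 CPM in marker-free cells, too low to be measured, and so could not be called there. The tumour and epithelial markers were lower in Aged CD8 T barcodes than in Young, as given above. In marker-free cells 6 of 28 measured members were called higher (Tpi1 and Bnip3 joined the 4) and 0 lower, against 2.59% and 1.58% of all genes.

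KO and WT lay close together for nearly all members. Of 32 measured members 0 were called higher in KO, against 0.499% of 7415 genes, and 2 were called lower, against 2.87%. Vegfa was read at 9.87 CPM in KO and 26.0 in WT (0.380, 0.348 to 0.414) and Egln3 at 10.6 and 20.2 (0.525, 0.480 to 0.574). In marker-free cells Vegfa stood at 3.4 and 4.39 (0.776, 0.635 to 0.946) and Egln3 at 6.80 and 7.92 (0.859, 0.744 to 0.991). Both were under 10 CPM there, too low to be measured, and so could not be called. Both genes are far higher in tumour cells. The 16 tumour markers summed to 444.5 CPM in WT CD8 T barcodes and 231.3 CPM in KO, and their part in the ratios was not tested beyond the marker-free cells.

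Of the 32 members 25 had a ratio under 1, against 4732 of 7415 measured genes. The median log2 ratio of the members was -0.10, against -0.05 over all measured genes. Slc2a3 was at 41.2 in KO and 37.4 in WT (1.10), Slc16a3 at 25 and 26.4 (0.949), Eno1 at 477.3 and 431.1 (1.11) and Hif1a at 404.1 and 405.9 (0.996). Tpi1 was at 282.5 and 337.1 (0.838) in all cells and at 255.9 and 263.1 (0.973) in marker-free cells. Ero1l crossed 1, from 76.1 and 96.5 (0.789) to 64.0 and 58.8 (1.09). Hk2 was at 32.5 and 29.6 (1.10, 1.04 to 1.17) in all cells and at 28 and 20.1 (1.39, 1.28 to 1.51) in marker-free cells. That ratio was the highest of the members there and did not reach the call. Pfkm and Pfkfb4 stayed under the minimum level. The other measured ratios in all CD8 T cells lay between 0.748 (Aldoc) and 1.11 (Mxi1), among them 0.756 for Bnip3, 0.753 for Ddit4 and 0.796 for Pfkfb3, and were 0.815 for Aldoc, 0.873 for Bnip3, 0.830 for Ddit4 and 0.979 for Pfkfb3 in marker-free cells.

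**Figure D2:**
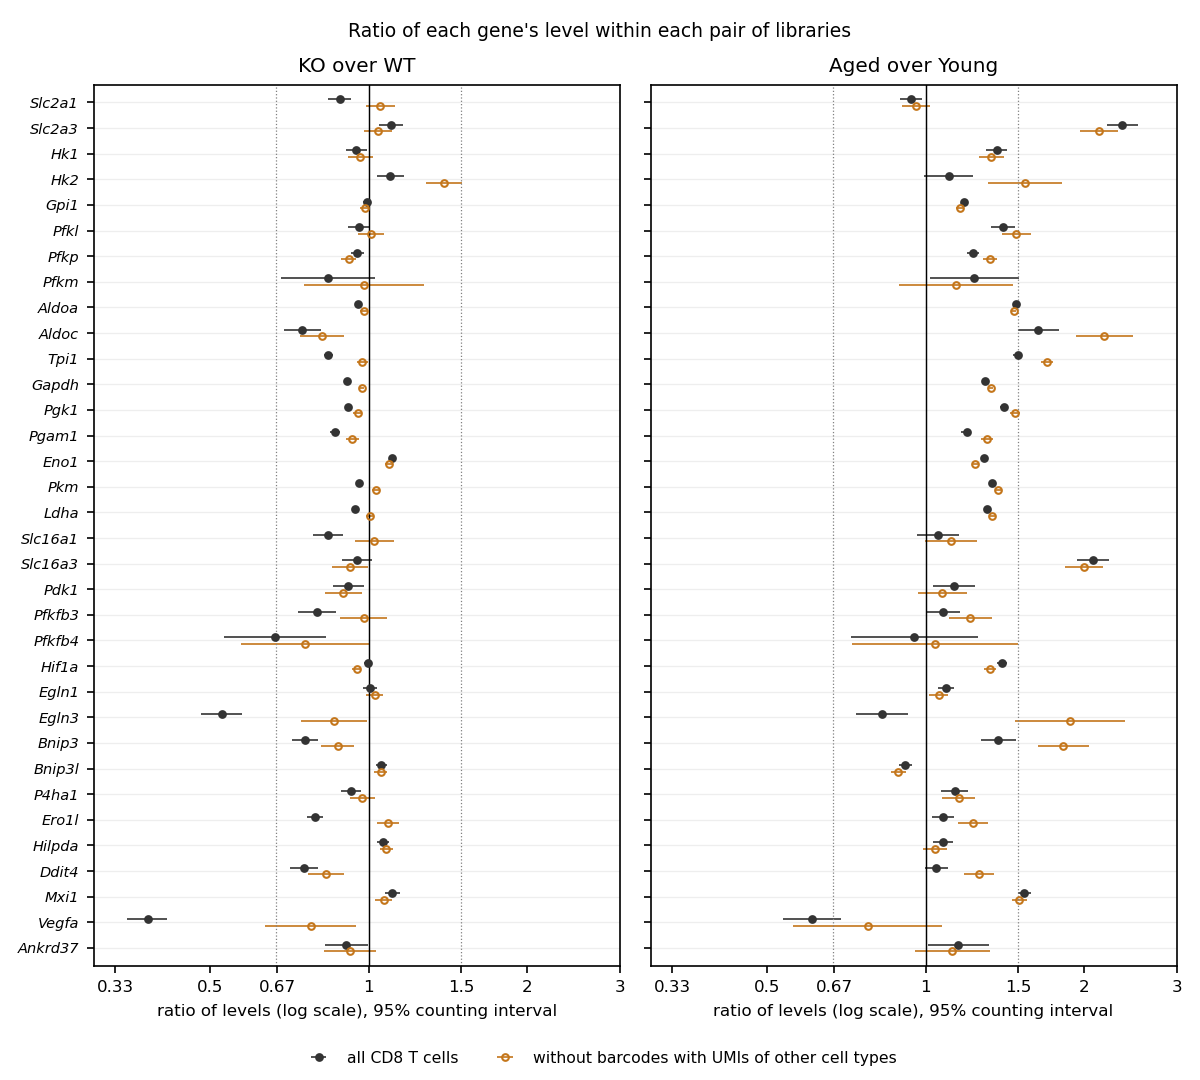
Ratio of each gene's level within a pair of libraries (log scale) with its 95% counting interval, in all CD8 T cells (filled) and in cells free of markers of other cell types (open). Dotted lines mark 1.5 times up and down. Slc2a3 and Slc16a3 lie past the line in Aged over Young with both sets of cells, and Vegfa and Egln3 lie past it in KO over WT only when all CD8 T cells are used.

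Summed over the 34 genes, the share of all UMIs in CD8 T cells was 0.790% in WT, 0.743% in KO, 0.865% in Young and 1.14% in Aged. In tumour cells it was 1.57%, 1.83%, 2.02% and 2.35%, above the T cells in every library. KO over WT had a ratio of 0.940 (0.936 to 0.943), and 0.989 (0.985 to 0.994) in marker-free cells. Aged over Young had a ratio of 1.32 (1.31 to 1.32), and 1.33 (1.33 to 1.34) in marker-free cells. Thinned to 2000 UMIs per cell, the median cell gave 0.55% of its UMIs to these genes in WT and in KO, 0.65% in Young and 0.85% in Aged. Thinning left out 80, 45, 611 and 201 cells with fewer UMIs. The unthinned medians were 0.557%, 0.543%, 0.658% and 0.816%.

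The share followed the state of the cells in all 4 libraries. Cells were gated by the presence of at least 1 UMI of Mki67, a marker of dividing cells, of Havcr2, the inhibitory receptor TIM-3 of strongly stimulated T cells, or of Tcf7, the transcription factor TCF-1 of naive and stem-like T cells. A cell without a UMI may still express the gene. Cells with Havcr2 made up 25.1% in WT, 26.9% in KO, 17.7% in Young and 35.3% in Aged. Those with Tcf7 made up 36.0%, 38.2%, 39.8% and 29.8%, and those with Mki67 13.35%, 12.4%, 17.8% and 19.6%. The part of this make-up in the ratios within pairs was not tested beyond the equal weights and single gates given below. Among the 8 combinations the lowest share was in cells with Tcf7 alone, at 0.537% in WT, 0.568% in KO, 0.730% in Young and 0.821% in Aged. The highest was in cells with Mki67 and Havcr2 but no Tcf7 in WT (1.19%), KO (1.09%) and Aged (1.48%). In Young it was in cells with Mki67 alone (1.08%), next to 1.06% for Mki67 with Havcr2. Aged lay above Young in all 8 combinations. KO lay below WT in all but the cells with Tcf7 alone. With the 8 combinations weighted equally, the log2 ratio of Aged over Young was 0.27 in place of 0.40. The ratio of Aged over Young was 1.37 (1.37 to 1.38) in cells with Havcr2 and 1.14 (1.13 to 1.14) in cells without. It was 1.13 (1.12 to 1.14) in cells with Tcf7 and 1.35 (1.34 to 1.35) in cells without, and these pairs of ratios were not tested against each other.

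**Figure D3:**
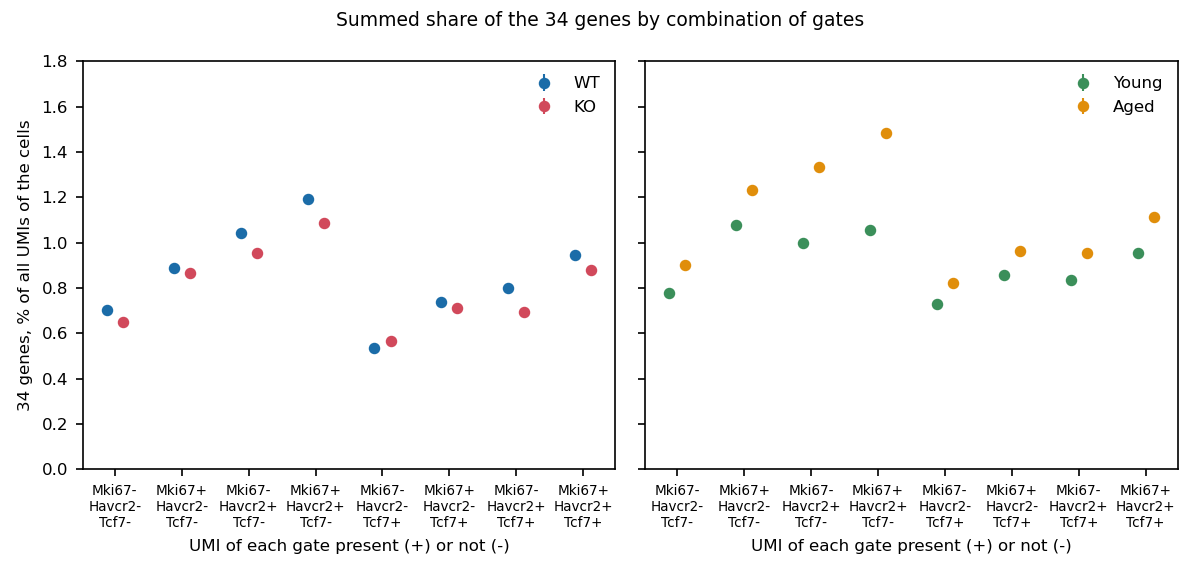
Share of all UMIs held by the 34 genes, in percent of the summed UMIs of the cells, for the 8 combinations of gates. Bars are 95% counting intervals and are smaller than the points. Aged lies above Young throughout, and cells with Tcf7 alone are lowest in every library.

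Within a library, a member was called by a gate if cells with and without the gate's UMI differed at least 1.3 times the same way in all 4 libraries, each level raised by 1 CPM. The gates' own genes are not among the 34. Cells with a UMI of a gate were deeper, most of all for Mki67, with medians of 9282 to 12270 UMIs against 4149 to 6590. With Havcr2 the medians were 7241 to 8520 against 4284 to 6443, and with Tcf7 4992 to 7314 against 4188 to 6641. The gates were therefore also set on cells thinned to 2000 UMIs.

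Havcr2 marked cells with more of the lactate exporter and of several enzymes. Slc16a3 stood at 45.2 with and 16.9 without in WT, 36.6 and 18.7 in KO, 28.7 and 15.0 in Young, and 57.9 and 21.3 in Aged. The ratios were 2.67, 1.96, 1.92 and 2.73. Bnip3 had ratios of 2.28, 2.32, 1.79 and 2.33, Tpi1 1.95, 1.83, 1.61 and 2.00, and Hilpda 1.63, 1.49, 1.86 and 2.20. Of 29 measured members 8 were called higher (these 4 with Aldoc, Pgk1, Pgam1 and Ldha), against 4.44% of 6871 genes, and 0 were called lower, against 2.11%. With thinned cells 5 were called higher, against 1.28% of all genes, and Slc16a3, Bnip3, Tpi1 and Hilpda were among them. In marker-free cells 10 were called, against 5.11%. The 22 glycolysis members summed had ratios of 1.23 to 1.60, and the 12 hypoxia members 0.994 to 1.38, with the lowest of both in Young.

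Tcf7 gave the opposite picture with fewer calls. Hilpda stood at 115.2 with and 191.1 without in WT, 124.1 and 205.6 in KO, 42.8 and 76.7 in Young, and 34.5 and 79.8 in Aged. Every library had the lower value in the cells with Tcf7. Of 30 measured members 4 were called lower (Hilpda, Tpi1, Slc16a3 and Ddit4), against 1.63% of 6762 genes, and 0 were called higher, against 1.06%. Held to cells without Mki67 and Havcr2 UMIs, 2 remained called (Hilpda and Ddit4), against 0.947%. On thinned cells 3 of 28 measured members were called lower (Slc2a3, Tpi1 and Hilpda), against 1.52% of all genes. In marker-free cells 4 of 27 were called lower (Tpi1, Slc16a3, Hilpda and Mxi1), against 1.78%. Tpi1 and Hilpda were thus called in both. Slc16a1 and Hk2 lay near or above 1, at 0.971 to 1.20 and 1.02 to 1.19.

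The members lay on both sides of 1 across the Mki67 gate, and fewer were called at equal depth. Tpi1 had ratios of 2.01, 1.84, 2.08 and 1.89 in WT, KO, Young and Aged, and Pgam1 1.65, 1.62, 1.57 and 1.57. Bnip3l, a receptor for the removal of mitochondria, lay under 1 at 0.786, 0.797, 0.707 and 0.669, as did Pdk1 at 0.853 to 0.899, Mxi1 at 0.764 to 0.918 and Hif1a at 0.824 to 0.937. Of 30 measured members 10 were called higher, against 15.3% of 7049 genes, and 0 were called lower, against 4.88%. On thinned cells the calls were 2 (Tpi1 and Ddit4), against 10.5% of all genes, so that the members' count lay under the background there. The Mki67 call of Egln3 ended in marker-free cells, where its ratios were 1.05 to 1.31. It was too low to be measured there, at 2.49 CPM over the marker-free Young cells, and so could not be called. Summed, the 12 hypoxia members had ratios of 0.924 to 1.02 across this gate and the 22 glycolysis members 1.28 to 1.43.

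**Figure D4:**
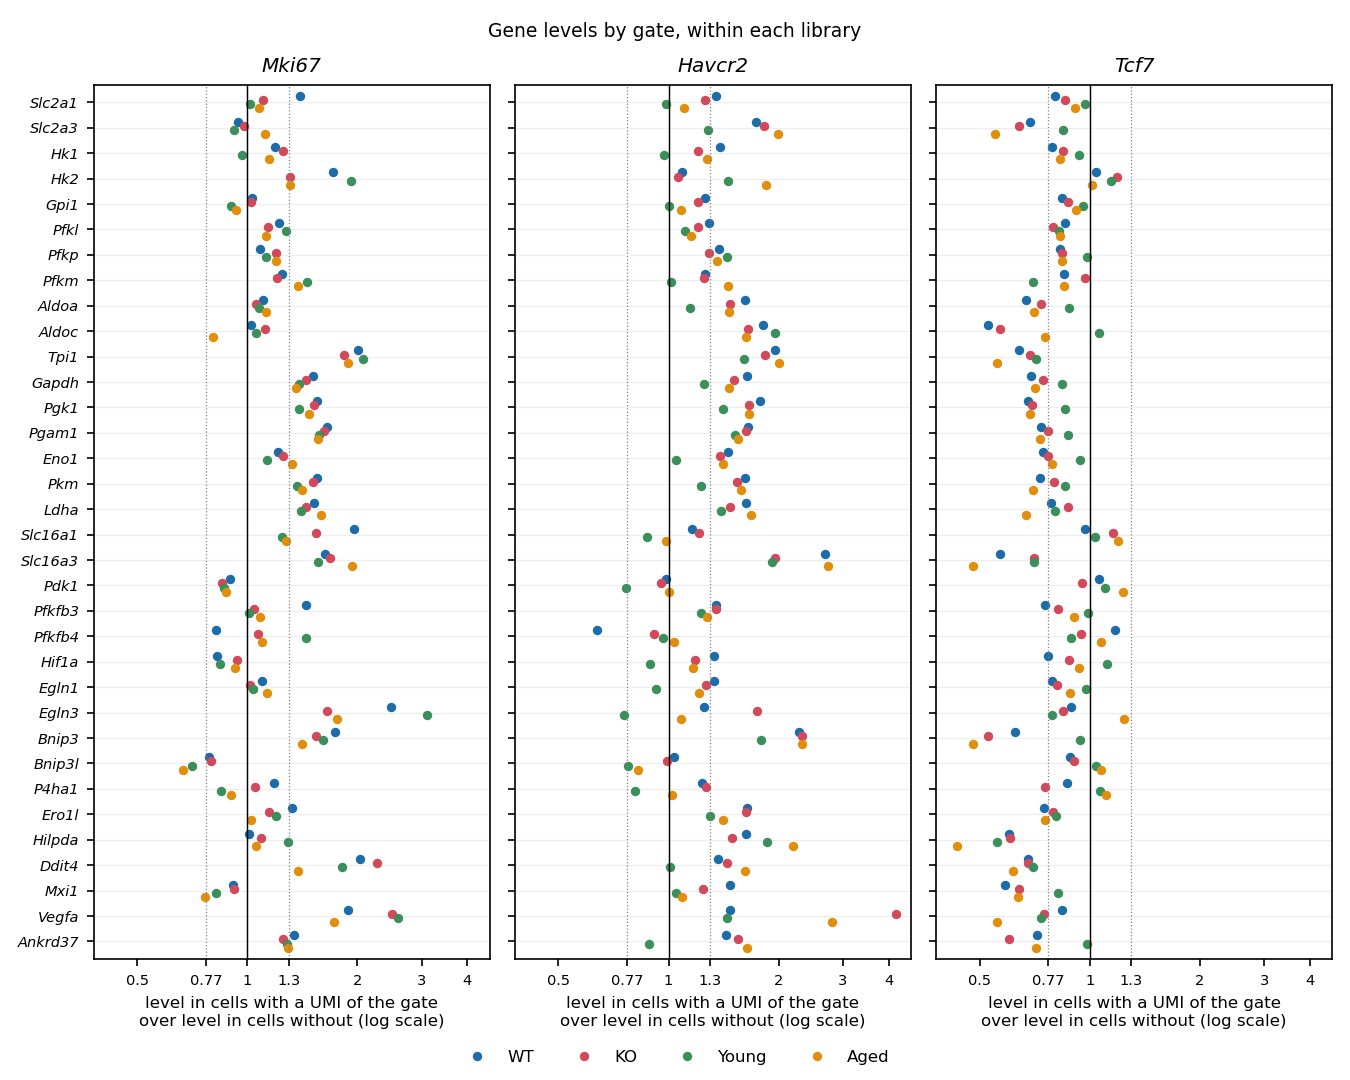
Ratio of each gene's level between cells with and without a UMI of Mki67, Havcr2 or Tcf7 (log scale), in each library. Dotted lines mark 1.3 times up and down. Slc16a3, Bnip3, Tpi1 and Hilpda lie to the right for Havcr2 in all 4 libraries and Hilpda to the left for Tcf7.

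To see which members varied together from cell to cell, cells thinned to 2000 UMIs were divided into 3 equal groups by the summed UMIs of the other 33 genes. The median cell of the low group had 6, 6, 8 and 10 UMIs of the 34 genes in WT, KO, Young and Aged, and that of the high group 21, 21, 22 and 29. Bnip3 stood apart. It was read at 67.5, 58.3, 30.2 and 40.3 CPM in the high group and 4.73, 3.15, 3.26 and 2.98 CPM in the low group, ratios of 14.3, 18.5, 9.25 and 13.5. The low group of each library held 16 to 28 Bnip3 UMIs. Tpi1 followed with ratios of 7.25, 7.87, 6.53 and 6.88, then Aldoc with 7.17, 7.65, 7.56 and 5.56 and Slc16a3 with 7.14, 6.69, 3.91 and 5.50. Pgk1 had 3.10 to 4.99 and Aldoa 2.80 to 3.92. Gapdh, whose level was highest, had 2.05 to 2.93. Vegfa had ratios of 5.43, 3.17, 5.8 and 11, with 21, 12, 10 and 3 UMIs in the low group. Egln3 had 3.39, 2.18, 5 and 4.18, with 28, 28, 10 and 11 UMIs there. The counting intervals of the 4 libraries overlapped for Bnip3, Tpi1, Aldoc, Slc16a3, Vegfa and Egln3. That of Vegfa was 1.62 to 6.66 in KO and 3.45 to 56.1 in Aged. For Pgk1, Aldoa and Gapdh the WT and Young intervals did not overlap, with 2.855 to 3.016 and 1.996 to 2.107 for Gapdh. In marker-free cells the ratios were 2.17, 7.33, 1.8 and 4 for Vegfa and 2.25, 1.95, 1.12 and 3.38 for Egln3.

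Slc16a1 and Bnip3l scarcely followed the rest, and several other members followed it more in some libraries than in others. Slc16a1 had ratios of 0.694 to 1.32 and Bnip3l 1.04 to 1.39. Mxi1 had 2.12 in WT and 1.55 in KO but 1.00 in Young and 0.981 in Aged, and Hif1a 1.90, 1.62, 1.05 and 1.20. The transporters Slc2a1 and Slc2a3 had 1.05 to 1.98 and 1.14 to 1.94. In marker-free cells Bnip3 had ratios of 12.6, 25.4, 9.54 and 12.9, Tpi1 6.00 to 7.80, Aldoc 5.54 to 9.33 and Slc16a3 3.47 to 8.33, so these 4 lay above the other members in every library, except that Vegfa in KO lay above Aldoc and Slc16a3. These ratios describe 1 library each. In all CD8 T cells the high group also held more cells with a UMI of Havcr2 (16.6, 14.5, 9.33 and 21.3%, against 4.76, 6.07, 5.71 and 10.9% in the low group) and fewer with one of Tcf7 (8.64, 9.88, 18.0 and 9.17%, against 21.8, 20.7, 24.6 and 20.2%). It held more cells with a UMI of Mki67 (8.88, 7.11, 12.9 and 12.6%, against 3.68, 2.81, 7.77 and 6.82%). Before thinning its cells had medians of 7138, 7840, 5631 and 8379 UMIs, against 5842, 6080, 4208 and 4864 in the low group, and the part of depth in the ratios was not tested. The median log2 ratio of all other genes was 0.14, 0.08, 0.00 and -0.02.

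**Figure D5:**
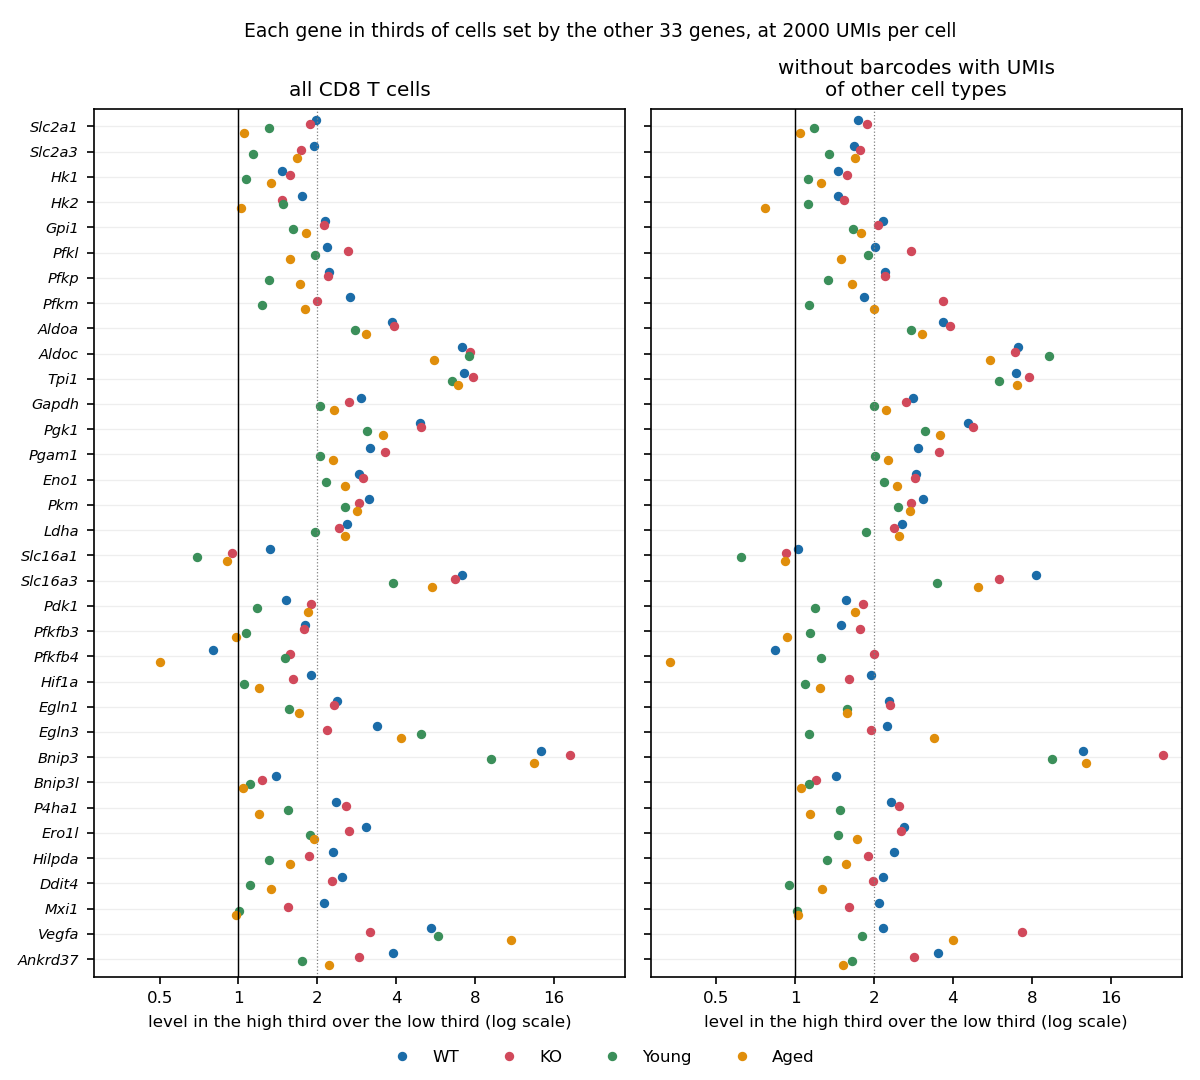
Level of each gene in the third of the cells with the most UMIs of the other 33 genes over its level in the third with the fewest (log scale), after thinning to 2000 UMIs per cell, for all CD8 T cells and for marker-free cells. The dotted line marks 2 times. Bnip3 lies farthest to the right in both panels, and Slc16a1 and Bnip3l lie near 1.

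Among 6357 other genes, the 10 whose smallest log2 ratio between the high and the low group over the 4 libraries was largest were Fgb, Gzme, Gzmd, Krt8, Spp1, Hspb1, Mt2, Krt18, Penk and Sox9, with smallest values of 3.26 down to 1.94. Krt8 and Krt18 are keratins of epithelial cells and are among the tumour markers, whose part in this order was not tested. In marker-free cells the 10 were Penk, Mt2, Gzmc, Mt1, Tk1, Pclaf, Galk1, Tnfrsf9, Nrgn and Fam162a, with smallest values of 2.15 down to 1.32. Penk encodes proenkephalin, Mt1 and Mt2 metallothioneins, Gzmc a granzyme, Tnfrsf9 the costimulatory receptor 4-1BB, and Tk1 and Pclaf products of dividing cells. Tnfrsf9 had log2 ratios of 2.15, 2.21, 1.37 and 1.53 there. Toward the other end in marker-free cells stood Klf2, a factor of resting T cells, at -1.47, -1.33, -0.64 and -0.98.

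Other genes of these pathways were read from 4 further lists. In Aged over Young, 1 of 15 measured further hypoxia genes was called higher and 2 lower, against 2.29% and 3.57% of all genes. Epas1, which encodes HIF-2α, stood at 58.8 and 24.4 CPM (2.41, 2.27 to 2.56) and at 54.3 and 25.5 (2.13) in marker-free cells, in the same direction as Hif1a. Hmox1, haem oxygenase, stood at 10.9 and 19.9 (0.546) and at 6.28 and 8.39 (0.749) in marker-free cells. The 11 further glycolytic isozymes and branch genes ranged from Eno3 at 0.725 to Pgm1 at 1.28, with 0 called. The 7 genes of the pentose phosphate branch ranged from Taldo1 at 0.786 to Rpe at 1.21, with 0 called, and the 10 genes of Myc and nutrient uptake from Slc38a2 at 0.760 to Mtor at 1.18, also with 0 called. The median log2 ratio of the isozymes and branch genes was -0.06, against 0.38 for the glycolysis members.

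In KO over WT, 0 of 14 further hypoxia genes, 0 of 9 isozymes and branch genes and 0 of 7 pentose phosphate genes were called. Their ends were Epas1 at 0.722 and Tfrc at 1.13, Bsg at 0.782 and Mpc1 at 1.02, and Pgd at 0.848 and G6pdx at 0.979. Bsg encodes basigin, the partner that carries MCT1 and MCT4 to the membrane, and stood at 222.9 and 285.0 in all cells but at 197.7 and 198.4 (0.997) in marker-free cells. Epas1 kept its ratio there (0.692). Of the Myc and nutrient genes Myc was called lower, at 11.2 in KO and 20.3 in WT (0.549, 0.503 to 0.599), and at 9.53 and 15.4 (0.620, 0.554 to 0.693) in marker-free cells. Slc3a2, the heavy chain of amino acid transporters, was highest at 605.1 and 448.9 (1.35). By Havcr2, 3 of 14 measured further hypoxia genes passed 1.3 times upward in all 4 libraries (Ndrg1, Epas1 and Plod2), against the 4.44% of all genes given above, and by Tcf7 2 passed downward (Epas1 and Plod2), against 1.63%. By Mki67, 3 passed upward (Fam162a, Plod2 and Tfrc), against 15.3%, and 1 downward (Fosl2), against 4.88%. Of the 10 measured isozymes and branch genes 3 passed upward by Mki67 (Eno3, Pdk3 and Bsg), and of the Myc and nutrient genes Slc3a2 passed downward by Mki67 and Slc38a2 by Havcr2. Pgm1 passed upward by Havcr2 and Tkt, of the pentose phosphate genes, by Mki67. All 7 pentose phosphate genes lay under 1 in the cells with Tcf7 in all 4 libraries, against 2789 of 6762 measured genes. Of the 7, 0 were past 1.3 times, against 1.63% of all genes.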

How the data were processed

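Each of the 4 libraries was deposited as a matrix of whole-number UMI counts per gene and cell barcode, which per the file headers Cell Ranger wrote (6.1.1 for WT and KO, 7.1.0 for Young and Aged). Cell Ranger 6.0.0, Seurat 3.2.3 and mm10 are listed in the submitters' processing notes. No source used here gives the annotation or the treatment of intronic reads. The 2 pairs used different chemistries, per the labels' protocols (3' for WT and KO, immune profiling for Young and Aged), so levels were compared only within a library or a pair. The libraries held 85401443, 72752583, 68017515 and 70727987 counts in 9746, 8665, 11060 and 9048 barcodes.

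Counts were summed over the cells of a population and divided by the summed total (CPM, per 1000000). Ratios carry conditional binomial intervals and shares Clopper-Pearson intervals, both exact at 95%, and all cover counting error only. With 1 library per group no test was made. No length division was used, since a molecule counts once. No doublet caller was run, but the 5% of cells with the most UMIs were left out as an alternative. The calculations (Python 3.11.15, numpy 2.4.6, scipy 1.17.1) were tested on simulated data. The members and lists were chosen with earlier results of these data known. Every member is reported, and beyond them the 10 genes whose smallest ratio between the high and the low group was largest and the ends of each other list. The marker-free cells, the removal of the deepest cells and the further setting of the 3 equal groups were chosen after seeing the data. Promoters are from RefSeq (GRCm38.p6).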

Additional observations from a re-analysis of the deposited data

How the results depend on the processing

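Of the counts of members called, those between tumour and T cells and those of members called higher in KO, by Havcr2 lower and by Tcf7 higher stayed within 1.5 times of the reported value under every alternative run. Percentages in brackets are the share of all measured genes called the same way under the same setting. The 2 members lower in KO (2.87%) became 0 without barcodes with 2 or more UMIs of other marker lists (0.365%) and in marker-free cells (0.294%). They also became 0 without the 5% deepest cells (0.686%) and after thinning (0.9996%), and 1 with a pseudocount of 10 (1.955%). Each setting that gave 0 measured 30 members in place of 32. In marker-free cells Vegfa and Egln3 were under 10 CPM in KO and WT and so could not be called. The 4 higher in Aged (2.29%) became 2, Slc2a3 and Slc16a3, with equal weights of gate combinations (1.91%) and with a pseudocount of 10 (1.22%). The 1 lower in Aged (3.57%) became 0 with at least 2 CD3 and 2 CD8 UMIs (3.408%) and in marker-free cells (1.584%). It also became 0 without barcodes with 2 or more other-marker UMIs (1.461%), where the log2 ratio of Vegfa turned to 0.0386. The count was likewise 0 without the 5% deepest cells (1.802%), after thinning (1.831%) and with a pseudocount of 10 (2.444%).

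By gate, the 10 higher with Mki67 became 2 on thinned cells, against 10.5% of all genes, and 2 without the 5% deepest cells, against 10.3%. The 0 lower became 1 (Bnip3l) with at least 2 Mki67 UMIs, against 8.19%. The 8 higher with Havcr2 became 5 on thinned cells, against 1.28%. The 4 lower with Tcf7 became 2 with the other gates held negative, against 0.947%, and 2 without the 5% deepest cells, against 1.66%.

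The log2 ratio of the summed share, KO over WT (-0.09), kept its sign throughout. It was -0.0817 with at least 2 CD3 and 2 CD8 UMIs and without ribosomal and mitochondrial UMIs in the total, -0.0811 with at most 5% mitochondrial UMIs, -0.0604 without barcodes with 2 or more other-marker UMIs, -0.106 without Trbv12-1 barcodes, -0.0155 in marker-free cells, -0.0393 without the 5% deepest cells, -0.0397 after thinning, -0.0404 with the median of ratios and -0.0658 without Gapdh. Aged over Young (0.40) was 0.37 without barcodes with 3 or more Gzmd, Gzme and Gzmf UMIs, 0.30 without Trbv12-1 barcodes, 0.42 in marker-free cells, 0.37 without the 5% deepest cells, 0.33 after thinning, 0.27 with equal weights, 0.31 with the median of ratios and 0.40 without Gapdh. Of 408 alternative values of single members, 112 lay outside the counting interval for KO over WT, and 146 for Aged over Young. Besides these, 1 value of a called member changed sign, that of Vegfa in Aged over Young. Changes of sign in members that were not called were not counted apart, such as Ero1l in KO over WT and Egln3 in Aged over Young. The cause of these changes was not tested. No paired analysis was possible because each group had 1 library. With 1 library per group, differences between mice cannot be told apart from differences between groups.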
